A study of Homo sapiens with 6 samples.

Results

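Clusters of eCLIP reads were examined at 7 small structured noncoding RNAs, namely RN7SK (7SK), RN7SL1 and RN7SL2 (7SL), RMRP, RPPH1, SNORD3A (U3) and VTRNA1-1. They were chosen by position: any cluster overlapping the annotated interval of the RNA by at least 1 nt on its own strand was taken. This gave 38 of the 205520 clusters in the 3 IP libraries, namely 8 of 5717 in the control, 8 of 102843 in FLAG-Angel1 replicate 1 and 22 of 96960 in FLAG-Angel1 replicate 2. Of the 7 RNAs, 5 had a cluster in at least 1 library and 2, both genes of 7SL, had none. In eCLIP, proteins are cross-linked to RNA by UV light, the RNA held by the protein of interest is recovered by immunoprecipitation (IP), and a library of similarly sized RNA fragments from the same lysate (the size-matched input) gives the reference. The cells were HEK293, a human embryonic kidney line, of the Flp-In T-REx type, in which a construct sits at a defined integration site behind a tetracycline-regulated promoter. The 6 libraries (IP and input of 2 FLAG-Angel1 replicates and of 1 control) came from cells given 5 ng/mL tetracycline for 24 h, and cross-linking used 400 mJ/cm2 of light at 254 nm. The methods also mention a sample kept from UV light, and no label says whether it is among these libraries. FLAG-Angel1 carried an N-terminal FLAG tag on wild-type Angel1, titrated toward its endogenous level, and was recovered with the M2 FLAG antibody. The control, titled FLAG-only, was by the study's description the parental line, which makes no FLAG fusion protein, although its genotype label also reads FLAG-Angel1. Nothing in the labels said whether the replicates were separate cultures.

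These RNAs work as scaffolds of ribonucleoproteins rather than as templates for translation. 7SK is a nuclear RNA that holds the transcription elongation factor P-TEFb in an inactive complex. 7SL is the RNA of the signal recognition particle, which docks translating ribosomes at the endoplasmic reticulum. RMRP and RPPH1 are the RNA subunits of RNase MRP and RNase P, related enzymes that cut precursors of ribosomal RNA and transfer RNA. U3 is a box C/D small nucleolar RNA that guides early cleavages of the ribosomal RNA precursor. VTRNA1-1 is a component of vault particles. The study asked which RNAs Angel1 contacts, and these RNAs are abundant and are not translated.

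For each cluster the authors deposited the log2 fold of IP over input, each per library size, and the −log10 of a P for enrichment, which stood at 0 wherever the fold was below 0. A cluster was called enriched at the threshold of 0.05 on that P with a log2 fold above 0. The lists held no read counts, but every log2 fold in the 3 libraries was, to a relative tolerance of 4e-14, that of a ratio of whole numbers of reads, which gave IP and input reads in lowest terms. The true reads are these numbers or a common multiple of them, so that they are lower bounds. The smallest input was 1, and whether a 1 can stand for an input without reads was not tested. The sizes at which the reads returned the deposited P were 209788 IP and 3249250 input reads in the control, 3396701 and 722085 in replicate 1, and 2543630 and 2812210 in replicate 2. Intervals below are exact (Clopper-Pearson) 95% intervals of the log2 fold at the fewest reads the ratio allows. They cover counting error only and are at their widest there. The control is 1 library and clusters of a library are not replicates, so that no test was made between libraries.

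Most clusters at these RNAs held fewer IP than input reads per library size. The log2 fold was below 0 in 8 of 8 clusters of the control, 6 of 8 of replicate 1 and 20 of 22 of replicate 2. Over all clusters of the same libraries, 2.75%, 31.2% and 2.59% were below 0. The 4 clusters above 0 all lay on SNORD3A, and all 4 were enriched. Enriched clusters therefore numbered 0 of 8 in the control, 2 of 8 in replicate 1 and 2 of 22 in replicate 2, where the shares over all clusters were 91.8%, 11.7% and 40.7%. For the control and replicates 1 and 2, the clusters at these RNAs had median log2 folds of -2.31, -1.75 and -2.42, against 5.20, 0.57 and 1.73 over all clusters. These shares and medians over all clusters are not matched for input reads. In the control, 2984 of the 5717 clusters had 1 input read in lowest terms, and no cluster of 1 to 10 input reads was below 0. Clusters with many input reads are compared below.

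**Figure D1:**
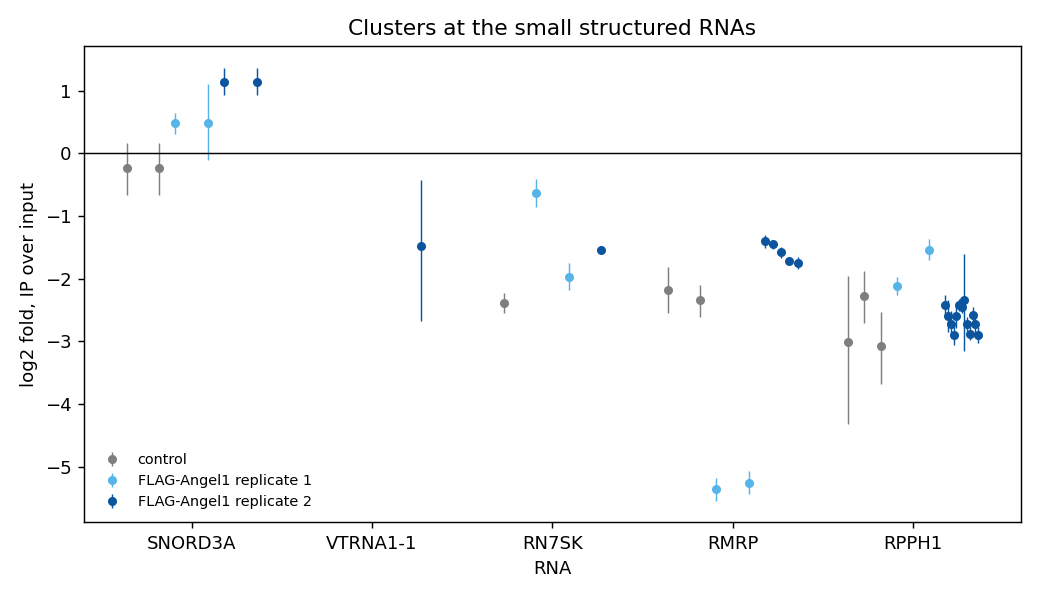
Log2 fold of IP over input for each cluster at the 5 RNAs with clusters, in the control and in both FLAG-Angel1 replicates. Each point is 1 cluster, the bars are exact 95% intervals at the fewest reads, and points of 1 library are spread sideways in order from the 5′ end. The 4 points above 0 are the FLAG-Angel1 clusters of SNORD3A, and the RMRP clusters of replicate 1 are the lowest, at -5.25 and -5.36.

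The reads behind these values set them apart from most of the lists. The median cluster over all RNAs had 1 input read in the control and in replicate 1 and 2 in replicate 2, in lowest terms, whereas the clusters at these RNAs had medians of 3710, 415 and 3548. A value of 1 is the smallest input in the lists. Deep clusters, with at least 100 input reads in lowest terms, made up 2.50% of the control list, 0.129% of replicate 1 and 0.329% of replicate 2. Among deep clusters in general, 86.0% of the control, 72.2% of replicate 1 and 69.3% of replicate 2 had a log2 fold below 0, against 8 of 8, 6 of 7 and 19 of 21 at these RNAs. The low folds were thus common to most deeply read clusters of each list, and 13 of the 21 deep clusters at these RNAs in replicate 2 were pieces of RPPH1. Enriched clusters made up 4.90%, 26.3% and 28.5% of the deep clusters of the 3 lists in the same order, against 0 of 8, 1 of 7 and 2 of 21 at these RNAs. These counts leave out 1 enriched SNORD3A cluster of replicate 1, which has 28 input reads in lowest terms and 336 by its P. The part that read depth plays in the low folds was not tested.

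**Figure D2:**
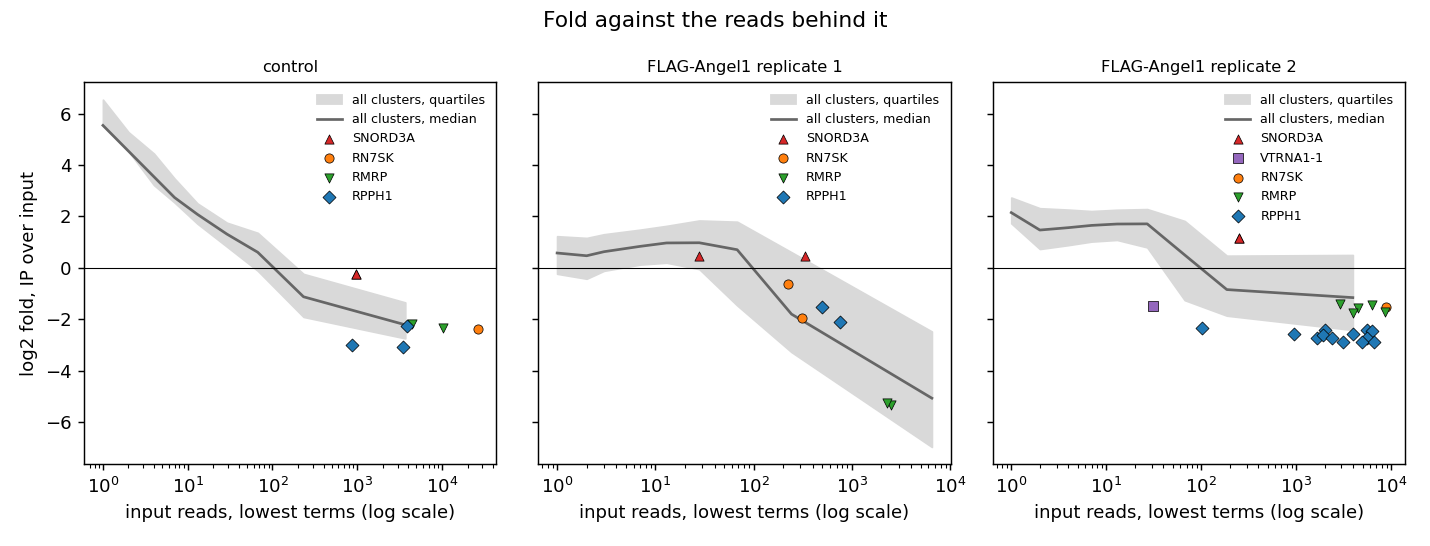
Log2 fold against input reads in lowest terms (log scale) in the 3 libraries. The line and band give the median and quartiles of all clusters in classes of input reads, and the symbols are clusters at the 5 RNAs. Above 1000 input reads all clusters had medians of -2.22 (control), -5.07 (replicate 1) and -1.16 (replicate 2). In replicate 2, RPPH1 sat below that median in that range of reads, with values of -2.90 to -2.42. RMRP, at -1.75 to -1.41, and RN7SK, at -1.55, sat below it by less.

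RN7SK lies on chr6:52860418-52860749 on the plus strand of GRCh37. Its clusters were below input in all 3 libraries and were limited to the 3′ part of the 332 nt RNA. The control had 1 cluster at positions 240 to 331 with a log2 fold of -2.39 (interval -2.55 to -2.23), from at least 326 IP and 26387 input reads. No cluster of the control list had more input reads in lowest terms. Replicate 1 had a pair of abutting clusters, at -0.63 (interval -0.85 to -0.41) for positions 203 to 270 and at -1.97 (interval -2.19 to -1.75) for positions 271 to 330. Replicate 2 had 1 cluster at positions 247 to 331 with a log2 fold of -1.55 (interval -1.61 to -1.48), from at least 2737 IP and 8831 input reads.

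Weighted by the bases covered, the log2 fold of RN7SK was -2.39 for the control, while the replicates gave -1.26 and -1.55, a mean of -1.40 ± 0.20 (SD, n = 2). Both FLAG-Angel1 values lay above that of the control, by 1.13 and 0.84. Over the 84 nt under clusters in all 3 libraries (positions 247 to 330) the values were -1.59, -1.55 and -2.39, so that the replicates differed by less there. No cluster covered the first 202 positions of 7SK in any library, nor did any lie on the opposite strand.

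RN7SL1 (chr14:50053297-50053596, plus strand) and RN7SL2 (chr14:50329268-50329569, minus strand) had 0 clusters in all 3 libraries, on either strand. The 7SL genes are near-identical to each other and to many genomic copies, and reads that fit several places cannot be assigned to 1 of them. How such reads were treated before the lists were made was not tested here, and an RNA without a cluster is not shown to be unbound.

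RMRP (chr9:35657748-35658015, minus strand, 268 nt) and RPPH1 (chr14:20811230-20811570, minus strand, 341 nt) were below input in every cluster of every library, 9 clusters for RMRP and 18 for RPPH1. Over all clusters above 1000 input reads in lowest terms, the medians were -5.07 in replicate 1 and -1.16 in replicate 2. Over all deep clusters the medians were -2.28 and -1.02. RN7SK and RPPH1 were higher in replicate 1, and SNORD3A was higher in replicate 2. For RMRP the replicates stood far apart. Its clusters in replicate 1 lay at positions 159 to 203 and 204 to 248 with log2 folds of -5.36 (interval -5.54 to -5.18) and -5.25 (interval -5.44 to -5.08), 41.0-fold and 38.2-fold fewer reads in the IP than in the input per library size. Only 33 of the 102843 clusters of replicate 1 had a log2 fold below the lower of these. Among the 25 clusters of replicate 1 above 1000 input reads in lowest terms, however, the quartiles were -6.97 and -2.48. This class includes both RMRP clusters, which lay between its quartiles. Its median was 6520 input reads, against 2495 and 2297 for the RMRP clusters. Among the 133 deep clusters of replicate 1, 20 and 22 had a lower log2 fold than these RMRP clusters. The class is too small to show how unusual the RMRP values were for their input reads. Replicate 2 had 5 clusters between positions 57 and 245, with log2 folds from -1.75 to -1.41. The highest, at positions 57 to 81, had an interval of -1.51 to -1.30 from at least 991 IP and 2904 input reads. The control had 2 clusters, at -2.18 (interval -2.56 to -1.82) for positions 72 to 90 and at -2.35 (interval -2.61 to -2.10) for positions 199 to 265. At least 64 IP and 4483 input reads lay behind the former and 131 and 10313 behind the latter. The weighted log2 folds of replicates 1 and 2 were -5.31 and -1.55 and that of the control was -2.31, so that the control lay between the replicates, whose mean was -3.43 ± 2.65 (SD, n = 2).

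At the 39 nt of RMRP under clusters in all 3 libraries (positions 207 to 245) the same order held, with -5.25 and -1.72 for replicates 1 and 2 and -2.35 for the control. Because the reads at RMRP are known only up to a common multiple, whether IP or input set the replicates apart cannot be read from them.

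RPPH1 was more even. In replicate 2 it was cut into 13 clusters between positions 66 and 298 that covered 59.2% of the RNA, all with log2 folds between -2.90 and -2.34. The highest, 3 nt wide at positions 239 to 241, had the fewest reads of these in lowest terms, at least 18 in the IP. Its interval at those reads was -3.16 to -1.61, and its true reads may be a multiple of them. The control had 3 clusters, with log2 folds of -3.01 at positions 80 to 119, -2.28 at positions 177 to 260 and -3.07 at positions 270 to 318. The interval of the first, from at least 7 IP and 871 input reads, ran from -4.32 to -1.96. The others had at least 52 and 3905 reads (interval -2.70 to -1.88) and 27 and 3514 reads (interval -3.67 to -2.53). Replicate 1 had 1 cluster of 68 nt at positions 171 to 238 with a log2 fold of -2.11 (interval -2.26 to -1.97) and an abutting cluster of 2 nt at -1.54. The weighted log2 folds of replicates 1 and 2 were -2.10 and -2.65, that of the control was -2.67, and the mean of the replicates, -2.37 ± 0.39 (SD, n = 2), differed from the control by 0.30, less than the spread of the replicates. Among deep clusters of replicate 2, between 6.90% and 16.6% had a lower log2 fold than the individual RPPH1 clusters.

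**Figure D3:**
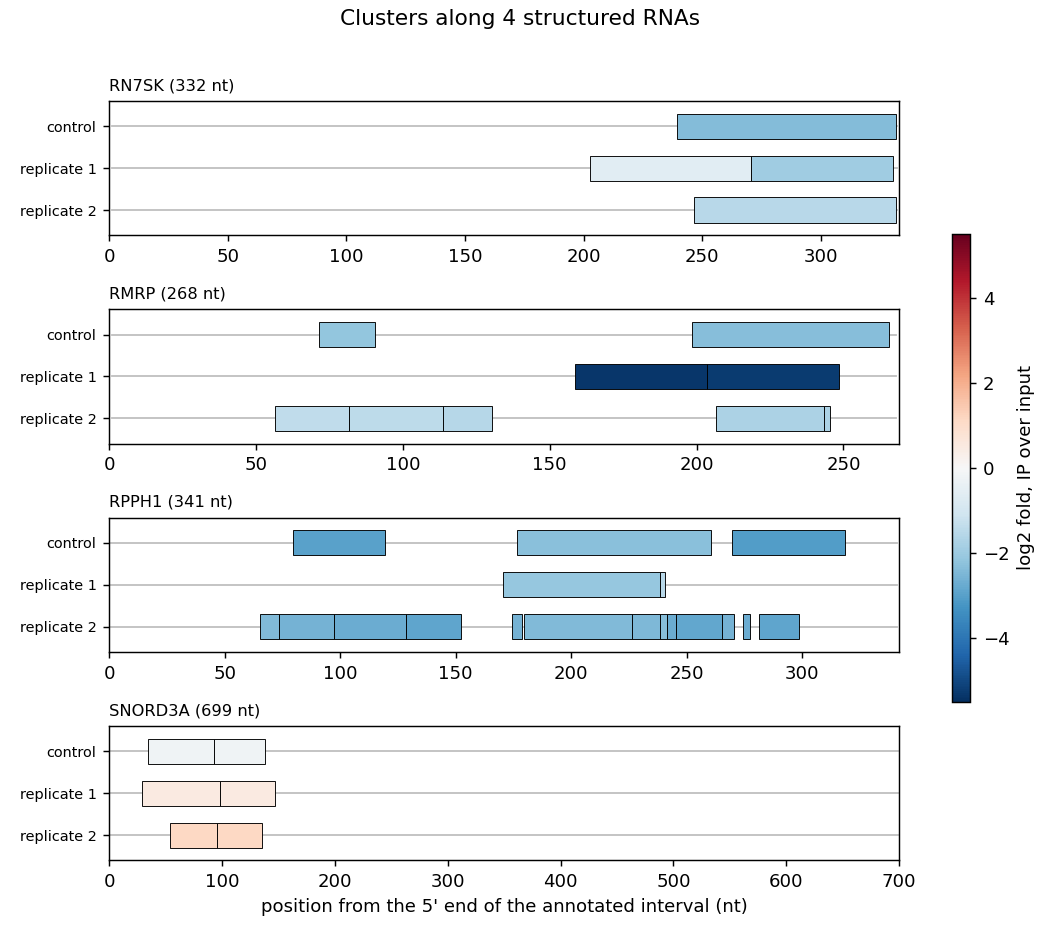
Clusters along RN7SK, RMRP, RPPH1 and SNORD3A, with the distance in nt from the 5′ end of the annotated interval on the horizontal axis and the 3 libraries as rows. Boxes are clusters and their colour is the log2 fold of IP over input (blue below 0, red above 0). RN7SK clusters begin at position 203 or later, and the SNORD3A clusters lie between positions 30 and 146 of a 699 nt interval.

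SNORD3A was the member whose clusters were above input in both FLAG-Angel1 IPs. Its interval in GRCh37, chr17:19091329-19092027 on the plus strand, is 699 nt long, while RefSeq on GRCh38.p14 gives 217 nt, and how the shorter RNA sits in the interval was not examined. Replicate 1 had abutting clusters at positions 30 to 98 and 99 to 146, with log2 folds of 0.47 and 0.47 and −log10 P of 7.69 and 7.71. The reads that return both the fold and the P were 2195 IP over 336 input reads for the first and 2196 over 336 for the second, which gave intervals of 0.31 to 0.64 for each. Reads can overlap both of 2 abutting clusters, and the near-equal numbers show that these clusters are not independent measurements. Replicate 2 had clusters at positions 54 to 95 and 96 to 135, both with a log2 fold of 1.14 and with −log10 P at the deposited maximum of 400. Their ratio was 505 to 253 in lowest terms, and, if the maximum stands for a P beyond the highest other −log10 P of that list, 86.9, each had at least 2020 IP and 1012 input reads. The IP thus held 1.39 times the input reads per library size in replicate 1 and 2.21 times in replicate 2.

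In the control, clusters at positions 35 to 92 and 93 to 138 of SNORD3A carried the same log2 fold of -0.24, from at least 53 IP and 972 input reads, with an interval of -0.67 to 0.16 that includes 0. The FLAG-Angel1 mean was 0.81 ± 0.47 (SD, n = 2), and the values of both replicates lay above that of the control, by 0.72 and 1.39. This offset of the mean, 1.05, was similar in size to that of RN7SK, 0.98, although RN7SK stayed below input. SNORD3A held the 1 reproducible region among the 7 RNAs, chr17:19091358-19091474, where clusters of both replicates passed the threshold of 0.001 (over all clusters, 4.22% of the first and 17.0% of the second list did, as did 64.5% of the control list, where 0 of 8 clusters at these RNAs did). Within the whole lists, 48.6% (replicate 1), 18.7% (replicate 2) and 2.38% (control) of clusters had a lower log2 fold than SNORD3A. Among deep clusters 77.4%, 82.8% and 79.0% did, in the same order. The rank of SNORD3A among deep clusters was thus similar in the control and in the FLAG-Angel1 replicates. For RN7SK, 19.6% of deep clusters had a lower log2 fold in the control. In replicate 1 the shares were 66.9% and 53.4% for its abutting clusters, and in replicate 2 the share was 33.2%. U3 is encoded by several near-identical genes, and how their shared reads were assigned was not tested.

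VTRNA1-1 (chr5:140090859-140090958, plus strand, 100 nt) had 1 cluster, in replicate 2. It spanned positions 55 to 97 with a log2 fold of -1.49 (interval -2.68 to -0.42), from at least 10 IP and 31 input reads. With no cluster in replicate 1 or the control there is no replicate value for this RNA.

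Ordered by their weighted log2 fold, the RNAs stood differently in the libraries below SNORD3A, which had the highest value in each. In replicate 1 RN7SK (-1.26) was followed by RPPH1 (-2.10) and RMRP (-5.31). In replicate 2 VTRNA1-1 (-1.49), RN7SK (-1.55) and RMRP (-1.55) had nearly the same value, and RPPH1 (-2.65) was lower. In the control RMRP (-2.31), RN7SK (-2.39) and RPPH1 (-2.67) were close together. For the 4 RNAs with clusters in both replicates, the mean of SNORD3A lay above that of RN7SK by more than their SDs of 0.47 and 0.20, and RN7SK lay above RPPH1, whose SD was 0.39, in the same way. The mean of RMRP, with an SD of 2.65, was not placed against either of these. Within libraries RMRP lay below RPPH1 in replicate 1 and above it in replicate 2. It lay below RN7SK in replicate 1 and at nearly the same value in replicate 2.

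No cluster continued past the ends of the RNAs into their surroundings. Within 1000 nt outside the 7 intervals there were 0 clusters on the strand of the RNA in all 3 libraries, and 0 on either strand in the control. On the opposite strand there were 4 in replicate 1 and 5 in replicate 2, all before the 5′ end of RN7SL1 or of RPPH1. Next to RN7SL1, which RefSeq on GRCh38.p14 lists as overlapping RPS29, a ribosomal protein gene, replicate 2 had clusters with log2 folds of 2.67, 2.28 and 2.56, and replicate 1 had clusters at -0.16, -0.29 and 0.57. Next to RPPH1, on the side of PARP2, which encodes a poly(ADP-ribose) polymerase, replicate 1 had a cluster with a log2 fold of 1.06 and replicate 2 had a pair, at 2.81 and 2.47. Of these 9 clusters outside the RNAs, 1 of 4 in replicate 1 and 5 of 5 in replicate 2 were enriched. The shares over all clusters were 11.7% and 40.7%. In lowest terms those of replicate 2 had 5 to 23 IP and 1 to 5 input reads. The cluster beside RPPH1 in replicate 1 had 186 and 19. In both replicates RPPH1 itself was thus below 0, and the opposite-strand clusters 200 to 254 nt from its 5′ end were above 0.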

How the data were processed

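According to the submitters' processing notes, cutadapt, STAR, SAMtools and UMI-tools were used with GRCh37 (hg19); versions and the treatment of multimapping reads are not given in the sources used here. The authors called clusters in each IP separately with the Yeo laboratory eCLIP pipeline and deposited, for each, a log2 fold (IP over input, per library size) and the −log10 of an enrichment P. Inputs entered only through these values.

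Coordinates were counted from 1. The 7 RNAs and all rules were chosen with earlier results of these data known. All 7 RNAs are named, with values for the clusters of highest log2 fold and smallest P, or for all where there were at most 3. Library sizes were taken from the exact ratio of IP to input, with the most frequent log2 fold as 3 IP reads over 1, and from the deposited P (Fisher's exact test, or chi-square with Yates' correction), over 200 clusters per library. Deposited and recalculated −log10 P differed there by a median of at most 2.77e-06. Per RNA, log2 folds were averaged by bases covered. Alternatives were a stricter threshold, joined clusters, the highest cluster, the shared bases and each replicate alone. The recovery of whole reads was tested on simulated data. Python 3.11.15, numpy 2.4.6, pandas 2.3.3, scipy 1.17.1, statsmodels 0.14.6, mpmath 1.4.1 and matplotlib 3.10.9 were used. Other structured RNAs and protein partners were not analysed here, since no GRCh37 annotation was used.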

Additional observations from a re-analysis of the deposited data

Results flagged for a closer look

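SNORD3A was above input in both FLAG-Angel1 replicates, with weighted log2 folds of 0.47 and 1.14, and below it in the control, at -0.24. Every FLAG-Angel1 library thus moved one way and the control the other, but the difference was not tested, the control is 1 library, and its interval of -0.67 to 0.16 includes 0. Among deep clusters, 77.4% and 82.8% had a lower log2 fold than SNORD3A in replicates 1 and 2, and 79.0% in the control.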

How the results depend on the processing

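Of 78 values recalculated under alternatives other than leaving out a replicate, 58 stayed within the spread of the replicates, the counting interval or 1.5 times of a count, and 20 moved. With the threshold of 0.001 and a log2 fold of at least 3, enriched clusters, RNAs with one and reproducible regions all fell to 0 in both replicates. With abutting clusters joined, each replicate had 1 enriched cluster in place of 2. With either replicate left out, when no reproducibility is required, the clusters past 0.001 numbered 2 to 2. Taking the highest cluster in place of the weighted mean moved the FLAG-Angel1 log2 fold of RN7SK to -1.09 and of RPPH1 to -1.94, and neither changed sign. The other 33 of these 35 alternatives for log2 folds stayed within their spread, including the bases under clusters in all 3 libraries, which was added after seeing the data. Part of this was fixed beforehand. Requiring 50% of a cluster inside the RNA changed no value, and an RNA with 1 cluster, or with clusters of equal fold, in a library has the same value under each average. For RMRP the spread was an SD of 2.65. With either replicate left out, the log2 fold ranged from -1.55 to -1.26 for RN7SK, from -5.31 to -1.55 for RMRP, from -2.65 to -2.10 for RPPH1 and from 0.47 to 1.14 for SNORD3A, and with 2 replicates such a value cannot leave the SD. Counting enriched clusters alone, the share covered fell to 0% for every RNA and library with clusters, except SNORD3A in replicates 1 and 2, where it kept its 16.7% and 11.7%. These SNORD3A shares are of the 699 nt interval and not of the 217 nt that RefSeq gives. No paired analysis was possible because the results come from no test between groups. Depth limits the control, whose IP of 209788 reads left as few as 7 IP reads in lowest terms in a cluster, and VTRNA1-1.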
